A study of Mus musculus with 103 samples.

Results

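The genes described here are 6 of the 48526 genes in the expression table: the Fc gamma receptors Fcgr1, Fcgr2b, Fcgr3 and Fcgr4, their shared signalling chain Fcer1g, and the Fc receptor-like gene Fcrls. They were chosen by name, as the receptor family that microglia use to bind antibody, and all 6 passed the filter on low values. RNA-seq was performed on hippocampus from male mice on a C57BL/6J background, 1 library per mouse, from 6 lines aged 2, 4, 8 or 18 months (31 wild-type, 13 TAS10, 14 TPM, 16 HET_TASTPM, 15 HO_TASTPM and 14 TAU mice). The TAS10 line carries human APP with the Swedish mutation, hemizygous and driven by the neuronal Thy1 promoter. The line labelled TPM carries a different single transgene, also hemizygous. HET_TASTPM mice carry both transgenes in hemizygous form and HO_TASTPM mice carry both in homozygous form, and they are called hemizygous and homozygous mice below. The TAU line carries a mutant human tau gene (MAPT, P301L), hemizygous and driven by the Camk2a promoter of forebrain excitatory neurons, and the wild-type mice (C57Bl/6J) carry no transgene. Each transgene is therefore expressed in neurons, whereas the 6 genes are genes of myeloid cells. There were 7 or 8 wild-type mice at each age and 2 to 4 mice in each transgenic group, with only 2 TAU mice at 18 months. Levels are in TPM (transcripts per 1000000), a unit scaled by transcript length, so that levels of different genes can be set side by side.

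Fc receptors sit on the surface of immune cells and bind the constant part of antibodies that have coated a target. Fcgr1 encodes the receptor that binds monomeric IgG with high affinity, and Fcgr3 and Fcgr4 encode receptors for IgG in complexes; all 3 are activating and depend on Fcer1g, a small chain with an activation motif that recruits the kinase Syk and starts phagocytosis. Fcgr2b encodes the inhibitory receptor, which carries its own inhibitory motif and recruits the phosphatase encoded by Inpp5d. Fcrls resembles these receptors in sequence, has no established ligand, and in the mouse brain is used as a marker of microglia.

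Of the 6 genes, 4 lie within 276 kb of mouse chromosome 1 (GRCm38): Fcgr2b at 170958617 to 170976547 on the minus strand, Fcgr4 at 171018920 to 171029761 on the plus strand, Fcgr3 at 171051174 to 171064935 on the minus strand, and Fcer1g at 171229572 to 171234365 on the minus strand. Fcgr1 (96282909 to 96293969) and Fcrls (87250758 to 87263738) are on the minus strand of chromosome 3. All are annotated as protein-coding. Because reads were assigned to transcripts by sequence, stretches of 31 bases shared with other genes were counted in the annotated transcripts. Fcgr3 shared 233 of its 1733 such stretches (13.4%), all with Fcgr2b, and for Fcgr2b these were 4.15% of 5609. Reads from these stretches could have been split between the activating Fcgr3 and the inhibitory Fcgr2b. Fcgr4 shared 1.31% of its stretches with other genes, and Fcgr1, Fcer1g and Fcrls shared none.

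The 300 bases around each start site (250 before to 50 after, RefSeq, GRCm38.p6, 6 of 6 genes matched) were searched for AGGAAG on either strand (CTTCCT on the other). AGGAAG holds the core letters bound by ETS factors such as PU.1, the transcription factor of the myeloid lineage. Binding, and any part of these letters in the levels, was not tested. The letters were found in 5 of 6 promoters, compared with 35.1% of 27025 promoters. The longer form AGGAAGT, which overlaps the first and was also searched on both strands, was found in 3 of 6 and in 9.57% of all promoters. Fcgr2b held no match in this window. The stretch of 30 bases around the match nearest the start is shown for each of the 5 genes on the gene's own strand, with the matched letters in capitals, to show where these letters lie. Starts are those of the first RefSeq promoter listed for each gene; they lie at most 16 bases from the outer end of the annotated gene for Fcgr1, Fcgr4 and Fcer1g, and 214, 476 and 5532 bases inside it for Fcrls, Fcgr2b and Fcgr3 (171059403). Counted from these starts, the letters ended 2 bases before the start of Fcgr3 and reached the first base of Fcer1g, and they began 23 bases before the start of Fcgr4, 56 before that of Fcgr1 and 74 before that of Fcrls.
Fcgr1, chr3:96294008-96294037, minus strand: aatggcaacttcCTTCCTcttttctaatct
Fcgr3, chr1:171059393-171059422, minus strand: agagtccatttcCTTCCTctttttgtagtt
Fcgr4, chr1:171018891-171018920, plus strand: taaggctatttaCTTCCTctcttctagtca
Fcer1g, chr1:171234337-171234366, minus strand: cgaaggcgtggcAGGAAGgagggaactgtg
Fcrls, chr3:87263581-87263610, minus strand: acaactttgccaCTTCCTttttttcctatt

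In the table each library sums to 1000000 TPM and read counts are not given, and the depth of a library cannot be read from it. The labels give each mouse its own number, and p-values measure the spread between these mice. A score contrasting genes of striatum, thalamus and cortex with genes of hippocampal neurons set 12 libraries apart (scores of at least 1.68, against at most 1.42 in the others). They include 3 of the 4 homozygous mice of 4 months and 3 of the 4 TAU mice of 4 months. No library of 18 months was set apart, but the homozygous mice of that age scored 0.781, 1.10 and 1.42. Both TAU mice of 18 months scored lower (0.315 and 0.586), and the wild-type mice were at -0.722 to 0.307. The part of this difference in the values at 18 months was not tested. In 3 libraries (1 TAU at 2 months, 1 homozygous and 1 TAS10 at 8 months) the mouse gene that also reads the transgene was not above the wild-type range. In a bulk sample, more cells of a type and more RNA per cell cannot be told apart.

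In wild-type mice the 6 genes spanned a wide range of levels that changed little with age. At 18 months Fcrls was at 26.1 ± 2.76 TPM and Fcer1g at 25.8 ± 2.57 TPM (SD, n = 7), followed by Fcgr3 at 14.2 ± 2.49, Fcgr2b at 4.72 ± 0.786, Fcgr1 at 2.25 ± 0.618 and Fcgr4 at 0.593 ± 0.347 TPM. As shares of the summed level of the 6 genes, Fcrls made up 35.5%, Fcer1g 35.0%, Fcgr3 19.2%, Fcgr2b 6.42%, Fcgr1 3.06% and Fcgr4 0.807%. The lowest wild-type value of Fcgr4 at this age was 0.0169 TPM, so this gene is close to the limit of detection in the healthy hippocampus. None of the 6 genes passed the limma test between wild-type mice of 2 and 4 (3.03% of genes changed), 2 and 8 (3.27%), 2 and 18 (9.56%) or 8 and 18 months (0.297%). At 2 months no line differed from wild-type mice in any of the 6 genes either (0 of 30 tests at an adjusted p under 0.05, 2 of 30 at an unadjusted p under 0.05), where 0.148% to 1.86% of all genes did (TAS10 0.213%, TPM line 1.14%, hemizygous 0.148%, homozygous 1.86%, TAU 0.586%). Homozygous and hemizygous mice of 2 months gave 0 of 6 between them as well (1.67% of genes).

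**Figure D1:**
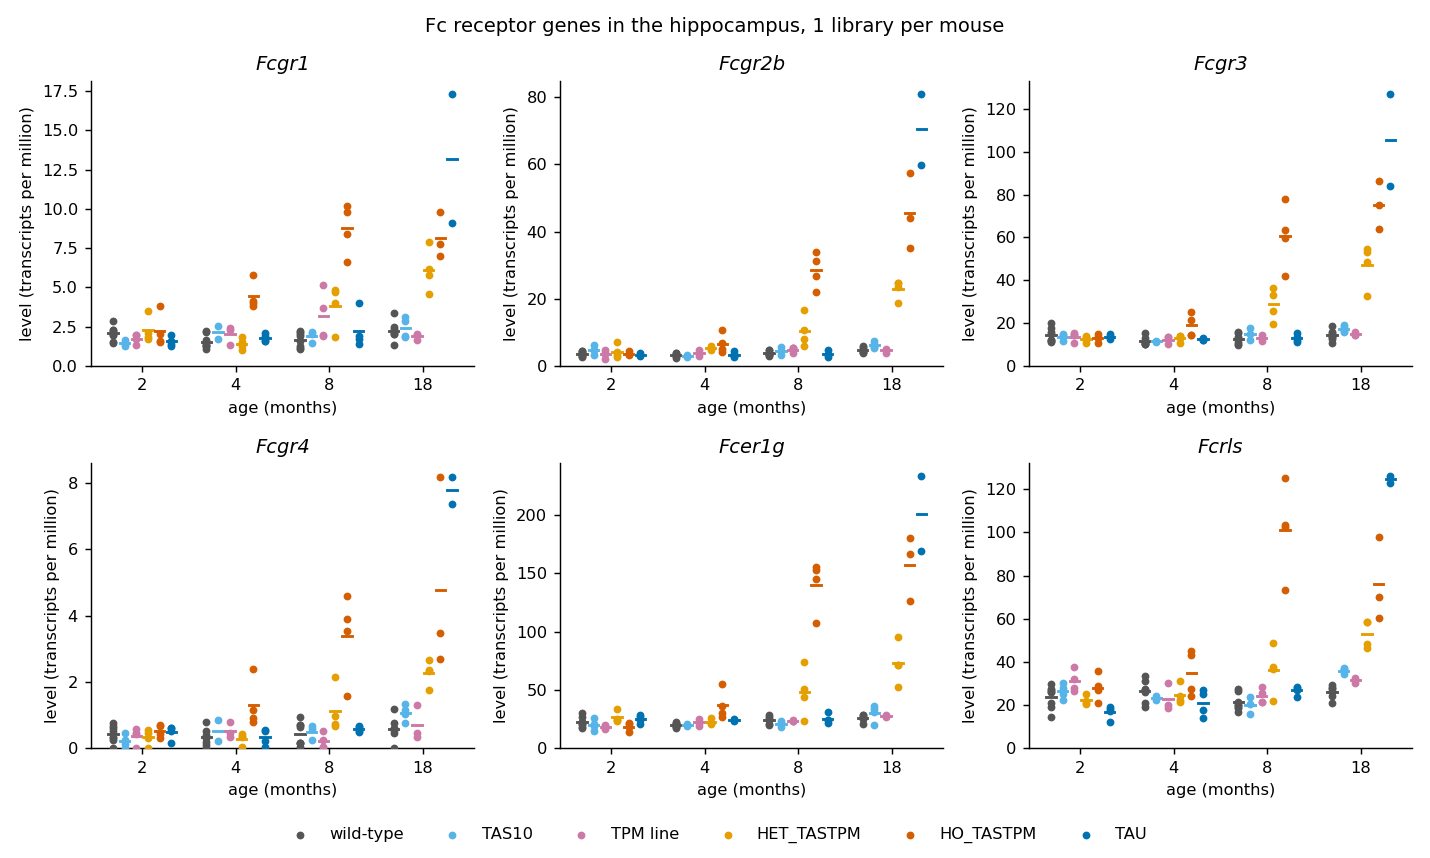
Level of each gene in TPM (transcripts per 1000000, linear axis from 0) against age in months; each point is 1 mouse, colours mark the 6 lines, and short lines mark group means. The homozygous mice lie above the wild-type mice at 8 months for every gene, and the 2 TAU mice of 18 months reach the highest mean of every gene.

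In homozygous mice of 4 months 5 of the 6 genes were already higher than in wild-type mice, in a group with 3 of 4 libraries set apart. The log2 difference was largest for Fcgr1 with 0.5 added to TPM (1.28, against 1.11 for Fcgr4), but for Fcgr4 with 0.1 added (1.85, against 1.48 for Fcgr1). Fcgr1 was at 3.82, 3.99, 4.14 and 5.78 TPM in the 4 homozygous mice and at 1.09 to 2.20 TPM (median 1.38) in the 8 wild-type mice (log2 difference 1.28 ± 0.21, SE, adjusted p = 1.52e-05). Fcgr4 was at 0.804, 0.912, 1.16 and 2.38 TPM, all above the highest wild-type value of 0.779 TPM (log2 difference 1.11 ± 0.27, adjusted p = 0.00335). Both groups of values are low, but they did not overlap. The common chain Fcer1g was at 26.6, 30.01, 36.6 and 54.7 TPM against 17.0 to 22.6 TPM (median 19.9) in wild-type mice (0.83 ± 0.16, adjusted p = 0.000245). The inhibitory Fcgr2b was at 4.06, 4.88, 6.82 and 10.6 TPM against 2.37 to 3.73 TPM (0.87 ± 0.19, adjusted p = 0.000984). Fcgr3 was at 14.6, 14.6, 21.2 and 25.3 TPM and overlapped the wild-type range of 10.02 to 15.5 TPM (0.66 ± 0.15, adjusted p = 0.00146). Fcrls, at 24.3, 27.6, 43.0 and 44.9 TPM, did not pass (0.37 ± 0.17, adjusted p = 0.146). Thus 5 of 6 genes passed, where 9.28% of the 26272 genes tested were higher in these mice. Of the hippocampal neuron markers 12 of 15 were lower in the same comparison (3.4% of all genes), and of the striatum, thalamus and cortex markers 10 of 13 were higher; the part of this difference in tissue in the result was tested only by leaving libraries out. With the 3 libraries set apart left out, 1 homozygous mouse remained, the one with the highest Fcgr1 of the group, and its spread was assumed to be that of the other groups. Against that mouse alone the difference was 1.65 for Fcgr1 (adjusted p = 0.00975) and 0.71 to 1.06 for the other genes (adjusted p = 0.114 to 0.691), so that 1 of the 5 calls was left and rests on 1 mouse.

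By 8 months every member had risen in the homozygous mice, to levels that did not overlap those of wild-type mice. The share of all genes without such overlap was not computed. Fcer1g was at 107, 145, 153 and 156 TPM, compared with 19.5 to 28.5 TPM (median 24.5) in the 8 wild-type mice (log2 difference 2.499 ± 0.16, adjusted p = 3.1e-23). Fcgr3 was at 41.9, 59.9, 63.2 and 77.7 TPM against 9.84 to 15.9 TPM (median 12.7; 2.21 ± 0.15, adjusted p = 4.61e-22). Fcgr1 was at 6.59, 8.41, 9.81 and 10.2 TPM against 1.10 to 2.19 TPM (median 1.73; 2.11 ± 0.21, adjusted p = 9.43e-14). All 4 homozygous mice thus stood well above the wild-type range for each activating component. Fcgr4 was at 1.56, 3.54, 3.89 and 4.58 TPM, and the highest wild-type mouse was at 0.935 TPM (2.07 ± 0.27, adjusted p = 6.12e-09). The inhibitory Fcgr2b was at 21.9, 26.6, 31.2 and 34.0 TPM against 2.88 to 4.84 TPM (2.77 ± 0.19, adjusted p = 8.68e-22). This was the largest difference with 0.5 added to TPM, while with 0.1 added Fcgr4 was at 2.93 and Fcgr2b at 2.89. Fcrls was at 73.2, 102.7, 103.3 and 125 TPM against 16.9 to 27.5 TPM (2.21 ± 0.17, adjusted p = 2.75e-19). All 6 genes passed, where 4.82% of genes tested were higher, and all 6 still passed without the libraries set apart. Within the homozygous line, all 6 also rose from 4 to 8 months (3.05% of genes rose), by 0.91 for Fcgr1 and 1.10 for Fcgr4 and by 1.54 to 2.10 for the other 4. From 2 to 4 months 2 of 6 had risen (1.5% of genes).

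At 18 months the homozygous mice still exceeded the wild-type mice in every member (6 of 6, with 6.63% of genes higher), but Fcgr2b and Fcrls had values on different sides of their 8-month means. Fcgr2b was at 35.2, 44.0 and 57.3 TPM against 3.905 to 5.77 TPM (median 4.40) in the 7 wild-type mice, a log2 difference of 3.12 ± 0.21 (adjusted p = 1.46e-21) or 8.72-fold with 0.5 added to TPM. Fcrls was at 60.4, 69.9 and 97.9 TPM against 20.9 to 29.3 TPM (1.502 ± 0.19, adjusted p = 1.13e-09), or 2.83-fold. The inhibitory receptor and the microglial marker therefore had the largest and the smallest difference of the 6. Fcer1g was at 126, 167 and 180 TPM (2.58 ± 0.18, adjusted p = 7.46e-21), Fcgr3 at 64.1, 75.1 and 86.2 TPM (2.37 ± 0.17, adjusted p = 1.27e-20), Fcgr4 at 2.70, 3.47 and 8.18 TPM (2.21 ± 0.31, adjusted p = 3.67e-08) and Fcgr1 at 6.97, 7.73 and 9.80 TPM (1.68 ± 0.23, adjusted p = 3.29e-08). The changes from 8 to 18 months within the line, 0.66 for Fcgr2b (adjusted p = 0.21) and -0.41 for Fcrls (adjusted p = 0.461), did not pass, nor did those of the other 4 genes (0.403% of genes changed). All homozygous libraries of this age had lane number 3 in the column headers. Some pairs of index sequences recur under the same lane number, so a number can cover different physical lanes. Against the wild-type mice with lane number 3 alone the differences were 1.498 to 3.14 and all 6 genes passed.

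In hemizygous mice the first calls came at 8 months. At 4 months none of the 6 passed (0 of 6 in limma, 1 at an unadjusted p under 0.05, 0.693% of genes): Fcgr2b, at 4.59, 5.13, 5.23 and 5.92 TPM, lay above all wild-type mice of that age but had an adjusted p of 0.0952 (0.64 ± 0.19). At 8 months 5 of 6 were higher (4.12% of genes). Fcgr3 was at 19.4, 25.8, 32.9 and 36.5 TPM (1.13 ± 0.15, adjusted p = 4.38e-08) and Fcgr2b at 5.98, 8.02, 10.6 and 16.7 TPM (1.27 ± 0.19, adjusted p = 1.28e-06), all above the wild-type ranges. Fcer1g was at 23.3, 43.8, 50.5 and 73.8 TPM, with 1 mouse inside the wild-type range (0.86 ± 0.16, adjusted p = 0.000218). Fcgr1 was at 1.83, 3.98, 4.68 and 4.80 TPM (0.96 ± 0.21, adjusted p = 0.00201) and Fcrls at 22.0, 36.8, 37.8 and 48.8 TPM (0.72 ± 0.17, adjusted p = 0.00429). The same mouse had the lowest value of Fcgr1, Fcgr2b, Fcgr3, Fcer1g and Fcrls. Fcgr4 did not pass (0.663, 0.717, 0.973 and 2.15 TPM, 0.81 ± 0.27, adjusted p = 0.0652). The number of genes that passed ranged from 4 to 6 when single mice were left out: Fcrls was lost without hemizygous replicate 4 (0.56, adjusted p = 0.0745) and Fcgr4 gained without wild-type replicate 2 (0.91, adjusted p = 0.0352). With only the groups compared in the fit, 2 of 6 passed.

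By 18 months all 6 genes were higher in hemizygous mice (4.67% of genes), and for each of them the 4 mice lay above the 7 wild-type mice. The share of all genes without overlap was not computed here either. Fcgr2b was at 18.6, 23.4, 24.6 and 24.8 TPM (2.16 ± 0.19, adjusted p = 4.35e-15), Fcgr3 at 32.7, 48.4, 53.3 and 54.6 TPM (1.69 ± 0.15, adjusted p = 6.88e-15) and Fcer1g at 52.8, 71.4, 71.6 and 95.7 TPM (1.46 ± 0.16, adjusted p = 7.54e-11). Fcgr1 was at 4.58, 5.76, 6.18 and 7.88 TPM (1.27 ± 0.21, adjusted p = 1.12e-05), Fcgr4 at 1.75, 2.32, 2.37 and 2.65 TPM (1.40 ± 0.28, adjusted p = 0.000367) and Fcrls at 46.6, 48.2, 58.4 and 58.5 TPM (1.005 ± 0.17, adjusted p = 1.68e-05). As in the homozygous mice, Fcgr2b had the largest difference and Fcrls the smallest. The hemizygous libraries of this age had lane numbers 7 and 8, which no wild-type library of this age had. Line and lane number therefore cannot be told apart in this comparison. With lane number as a covariate over all groups Fcgr4 no longer passed (1.11, adjusted p = 0.095). Within the line, 0 of 6 genes rose from 2 to 4 months (0.0609% of genes), 4 rose from 4 to 8 months (0.449% of genes) and 2 rose from 8 to 18 months (0.476% of genes), namely Fcgr2b by 1.20 (adjusted p = 0.000834) and Fcgr3 by 0.72 (adjusted p = 0.0206).

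The homozygous mice were compared directly with the hemizygous mice to ask how gene dose related to these levels. At 4 months 3 of 6 genes were higher in homozygous mice (0.952% of genes): Fcgr1 by 1.37 (adjusted p = 0.000291), Fcgr4 by 1.15 and Fcer1g by 0.66 (both adjusted p = 0.0442). The calls of Fcgr4 and Fcer1g were each kept in 2 of 8 fits that left out a single mouse, and both were lost with 0.1 added to TPM and without the libraries set apart. In that last setting 1 homozygous mouse of 4 months remained, so the Fcgr1 difference then rests on 1 mouse. It had the highest Fcgr1 of its group, 5.78 TPM against 3.82 to 4.14 TPM in the others. At 8 months all 6 were higher (4.67% of genes), by 1.08 for Fcgr3 to 1.64 for Fcer1g. At 18 months 3 of 6 were (3.96% of genes): Fcer1g by 1.12 (adjusted p = 0.000171), Fcgr2b by 0.96 (adjusted p = 0.00718) and Fcgr3 by 0.68 (adjusted p = 0.0157). Fcgr1 (0.40 ± 0.26, adjusted p = 0.385), Fcgr4 (0.80 ± 0.34, adjusted p = 0.144) and Fcrls (0.50 ± 0.21, adjusted p = 0.136) did not pass. The homozygous libraries of 18 months had lane number 3 and the hemizygous ones 7 or 8, so line and lane number cannot be told apart there. Of the 3 genes only Fcer1g passed with lane as a covariate. From 1 to 3 passed when single mice were left out, the fewest without homozygous replicate 1.

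In TAU mice no member passed the test against wild-type mice at 2, 4 (7.46% of genes) or 8 months (0.735%), and all 6 did at 18 months (11.9% of genes higher). At 8 months Fcgr2b was at 2.76, 3.21, 3.45 and 4.66 TPM in the 4 TAU mice (-0.08 ± 0.19, adjusted p = 0.929), Fcgr3 at 11.1, 12.0, 13.4 and 15.5 TPM and Fcer1g at 22.0, 23.8, 24.4 and 31.2 TPM. Only Fcgr1 showed a mouse well above the others, at 4.00 TPM beside 1.38, 1.70 and 1.91 TPM. At 18 months Fcgr2b was at 59.98 and 80.9 TPM in the 2 TAU mice, a log2 difference of 3.76 ± 0.25 (adjusted p = 6.26e-23) or 13.6-fold. Fcgr3 was at 83.9 and 127 TPM (2.84 ± 0.19, adjusted p = 8.03e-22), and Fcer1g was at 169 and 233 TPM (2.93 ± 0.21, adjusted p = 8.99e-21). Both TAU mice stood far above the highest wild-type mouse for each gene, and the share of all genes without overlap was not computed. Fcgr4 was at 7.38 and 8.18 TPM (2.99 ± 0.36, adjusted p = 1.18e-10), Fcgr1 at 9.08 and 17.3 TPM (2.28 ± 0.27, adjusted p = 9.22e-11) and Fcrls at 123 and 126 TPM (2.24 ± 0.22, adjusted p = 3.84e-14). With either TAU mouse left out, all 6 still passed; the difference ranged from 1.83 to 2.73 for Fcgr1 and from 2.19 to 2.27 for Fcrls. Between 8 and 18 months within the line all 6 rose (12% of genes), by 2.20 for Fcrls to 4.15 for Fcgr2b.

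The direct comparison of the lines at 8 months gave homozygous mice above TAU mice for all 6 genes (3.92% of genes) and hemizygous mice above TAU mice for 3 of 6 (2.34% of genes). At 18 months the direction was the opposite: all 6 were lower in hemizygous than in TAU mice (8.93% of genes), with log2 differences of -1.01 to -1.597. Between homozygous and TAU mice of 18 months only Fcrls was lower (3.05% of genes), with a log2 difference of -0.74 ± 0.25 (adjusted p = 0.04998). This call sits at the threshold and was lost with 0.1 added to TPM (adjusted p = 0.0572), with no filter on low values (0.0648) and when either TAU mouse or homozygous replicate 2 or 3 was left out. In the order of the 6 lines at 18 months, the mean of every gene was highest in TAU, then in homozygous and then in hemizygous mice. Of the 30 pairs of neighbours in these orders 8 differed, compared with 9 of 30 at 8 months and 0 of 30 at 2 and at 4 months. These counts only describe the orders, because the neighbours were picked by the same values that were tested. Lines further apart could differ, as homozygous and hemizygous mice of 4 months did in Fcgr1 (limma, adjusted p = 0.000291). In that homozygous group 3 of 4 libraries were set apart. The share of such pairs over all genes was not computed.

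**Figure D2:**
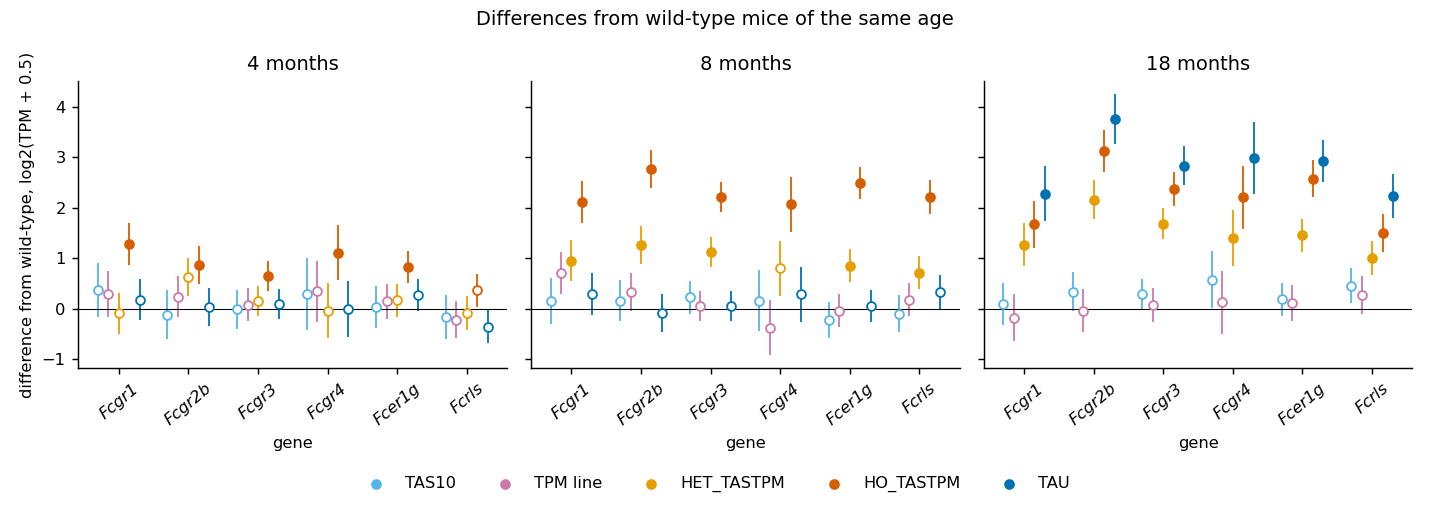
Log2 difference from wild-type mice of the same age for each gene, in panels for 4, 8 and 18 months, with bars for the 95% confidence interval from the fit; colours mark the 5 transgenic lines, and filled points passed the test (adjusted p under 0.05) while open points did not. At 8 months all 6 genes differ by over 2 in homozygous mice, and at 18 months Fcgr2b has the largest difference in the hemizygous (2.16), homozygous (3.12) and TAU (3.76) mice.

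In the lines with a single amyloid-related transgene none of the 6 genes passed the limma test against wild-type mice at any age. Calls were few among all genes too: at 4, 8 and 18 months 0.164%, 0.129% and 0.0571% of genes differed in TAS10 mice and 0.0609%, 0.00381% and 0.0914% in the TPM line. Together with the other comparisons that gave no call, 14 comparisons covered 84 tests, of which 8 had an unadjusted p under 0.05, and the log2 differences ran from -0.49 to 0.70. The largest was that of Fcgr1 in the TPM line at 8 months (1.92, 1.98, 3.70 and 5.13 TPM, 0.70 ± 0.21, adjusted p = 0.451). In TAS10 mice of 18 months Fcrls was at 34.3, 36.2, 36.5 and 37.0 TPM, above all 7 wild-type mice, but the difference of 0.46 had an adjusted p of 0.705. Within TAS10 mice Fcrls was the 1 of 6 genes that rose from 8 months (15.8, 20.3 and 23.8 TPM) to 18 months, by 0.85 (adjusted p = 0.0328; 0.259% of genes). That call was lost under quantile normalization and with lane as a covariate. In the TPM line 0 of 6 changed between these ages (0.122% of genes). The summed level of the 6 genes at 18 months was 68.6 to 80.7 TPM in wild-type mice, 80.6 to 82.0 in the TPM line, 83.3 to 101.1 in TAS10, 170 to 242 in hemizygous, 305 to 433 in homozygous and 456 to 590 TPM in TAU mice.

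The difference from wild-type mice was then compared between ages within a line. In homozygous mice it grew from 4 to 8 months for 4 of 6 genes (2.98% of genes): Fcgr2b by 1.90, Fcrls by 1.85, Fcer1g by 1.67 and Fcgr3 by 1.55. The growth of 0.83 for Fcgr1 (adjusted p = 0.0572) and of 0.96 for Fcgr4 (adjusted p = 0.106) did not pass. From 8 to 18 months none of the 6 passed in homozygous (1.15% of genes), hemizygous (0.0457%) or TAS10 mice (0.0152%). In hemizygous mice from 4 to 8 months Fcgr3 alone passed (0.98, adjusted p = 0.00498; 0.381% of genes), and in TAU mice from 8 to 18 months all 6 did (9.37% of genes), from 1.90 for Fcrls to 3.84 for Fcgr2b.

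The make-up of the family was described by the share of each member. Fcgr2b, the inhibitory receptor, made up 6.42% of the summed level in wild-type mice of 18 months, 11.2% in hemizygous, 12.3% in homozygous and 13.4% in TAU mice. Fcrls went from 35.5% to 26.3%, 20.7% and 24.3% in the same order, while Fcgr3 lay between 19.2% and 23.0%. Fcer1g made up 35.0%, 35.3%, 42.9% and 38.3%. To compare genes within the same library, log2 ratios were tested by exact two-sided permutation over mice, with 84 tests in the family, of which 19 had an adjusted p under 0.05 and 36 an unadjusted p under 0.05. The smallest p that could be reached was 0.00606 for 4 against 7 mice, 0.0167 for the homozygous mice of 18 months and 0.0556 for the TAU mice, so that the TAU ratios could not pass. The ratio of Fcgr1 to Fcgr2b differed from that in wild-type mice by -0.89 in hemizygous mice of 18 months (adjusted p = 0.0299). It differed by -1.45 in homozygous mice (exact p = 0.0167, adjusted p = 0.05) and by -1.48 in TAU mice (exact p = 0.0556). The ratio of Fcrls to Fcgr3 did not move in homozygous mice of 8 months (0.00), and differed by -0.87 in those of 18 months (exact p = 0.0167, adjusted p = 0.05).

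Each member was also set against the mean log2 level of 12 genes of homeostatic microglia (such as Csf1r, Cx3cr1, P2ry12 and Tmem119). These genes were themselves higher: 12 of 12 at 8 and 18 months in homozygous mice (4.82% and 6.63% of all genes). The same held at 18 months in hemizygous mice (4.67%). Their summed levels at 18 months were 214 to 237 TPM in wild-type, 344 to 427 in hemizygous, 457 to 588 in homozygous and 508 to 652 TPM in TAU mice. Relative to these genes Fcgr2b was higher than in wild-type mice by 0.64 in homozygous mice of 4 months, 1.28 in those of 8 months and 1.34 in hemizygous mice of 18 months (adjusted p = 0.0299 in each, exact permutation test). At 18 months it differed by 1.88 in homozygous mice (exact p = 0.0167, adjusted p = 0.05) and by 2.35 in TAU mice (exact p = 0.0556), with every mouse above all wild-type mice. Fcgr3 was higher by 0.43, 0.72 and 0.86 and Fcer1g by 0.60, 1.01 and 0.63 in the first 3 of these groups (adjusted p = 0.0299 in each, exact test). Relative to the same genes Fcrls was higher by 0.73 in homozygous mice of 8 months (4 of 4 above all wild-type mice, adjusted p = 0.0299, exact test). At 18 months it differed by 0.18 in hemizygous, 0.26 in homozygous and 0.83 in TAU mice (exact p = 0.176, 0.1 and 0.0556), with 2 mice of each group above all wild-type mice. In TAS10 mice of 18 months the Fcrls ratio was higher by 0.30, with 4 of 4 mice above all wild-type mice (adjusted p = 0.0299, exact test). The Fcgr1 ratio was higher by 1.05 in homozygous mice of 4 months (3 of 4 above all wild-type mice, adjusted p = 0.0357, exact test) and differed by 0.62 in those of 8 months (exact p = 0.0162, adjusted p = 0.05), and by 0.44 in hemizygous (exact p = 0.0545) and 0.43 in homozygous mice of 18 months (exact p = 0.0833). The Fcgr4 ratio was higher by 0.89 in homozygous mice of 4 months (4 of 4 above all wild-type mice, adjusted p = 0.0299, exact test) and differed by 0.59 at 8 months (exact p = 0.109). Without the libraries set apart, 1 homozygous mouse of 4 months remained, and the ratios of that group were not tested. None of the other ratios passed in that setting. No library of 18 months was set apart, so leaving libraries out could not change the differences of that age. The lowest adjusted p over the remaining family was 0.0623 (exact permutation test).

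**Figure D3:**
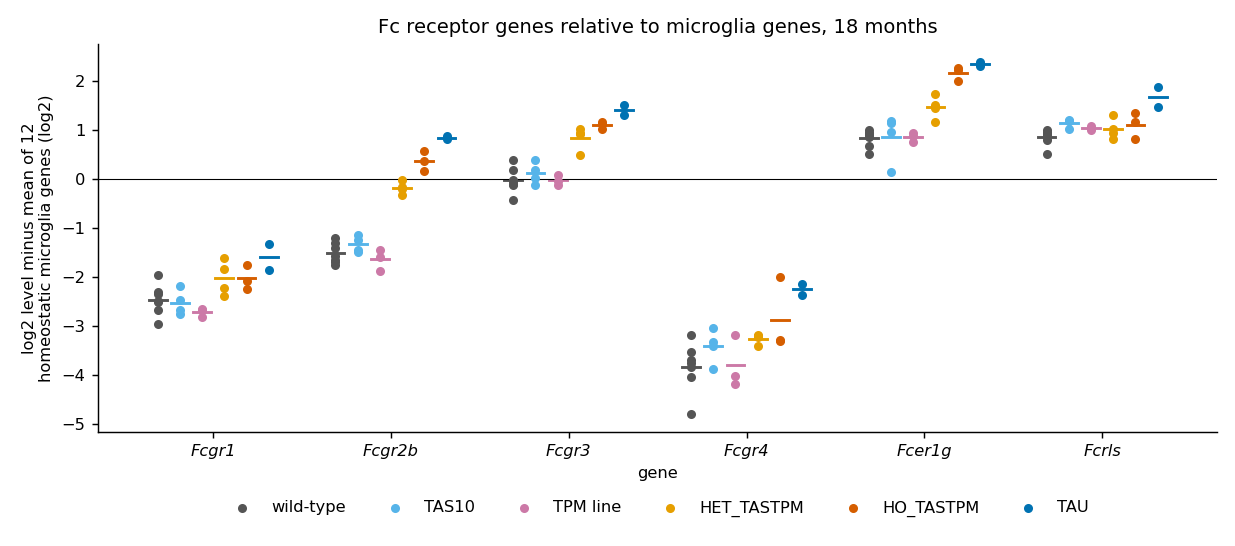
Log2 ratio of each gene to the mean of 12 homeostatic microglia genes at 18 months, 1 point per mouse, with colours for the lines and short lines for group means. Fcgr2b lies apart most clearly, with a mean of -1.52 in wild-type mice and 0.36 in homozygous mice, while the Fcrls means are 0.84 and 1.10.

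Genes of the signalling pathway were read from lists. Of 24 genes of activating signalling, 16 passed upwards at 8 months in the homozygous line, where 4.82% of all genes did. At 18 months 15, 18 and 18 did in hemizygous, homozygous and TAU mice, where 4.67%, 6.63% and 11.9% of all genes did. None was lower. Their median log2 difference at 18 months was 0.71, 1.09 and 1.42, where the median over all genes lay between -0.03 and 0.01. Tyrobp, an adaptor chain built like Fcer1g, had the smallest p of the list in each comparison: it was at 84.3 ± 7.59 TPM in wild-type mice (n = 7) and 682 ± 82.7 TPM in homozygous mice (n = 3), a difference of 3.01, and at 651 and 1159 TPM in TAU mice (3.36). The ratio of Fcer1g to Tyrobp differed from that in wild-type mice by -0.68 in homozygous and -0.77 in hemizygous mice of 8 months, and by -0.70 in hemizygous and -0.41 in TAS10 mice of 18 months (adjusted p = 0.0299 in each, exact permutation test). Syk, the kinase that binds the activated chain, was higher by 0.94 in homozygous (adjusted p = 1.2e-06) and 1.40 in TAU mice of 18 months, and was at 0.34 (adjusted p = 0.142) in hemizygous mice. The Src-family kinase Lyn, which starts signalling at the receptors, passed in the hemizygous, homozygous and TAU mice (0.79, 1.20 and 1.83 in that order). Fgr, of the same family, passed in the homozygous (1.63) and TAU mice (3.03) and was at 0.43 in hemizygous mice (adjusted p = 0.16). Downstream, Vav1, an exchange factor for Rac (0.92, 1.76 and 2.41), Pik3cg, a catalytic subunit of PI3 kinase (0.74, 1.10 and 1.45), and the PI3 kinase adaptor Pik3ap1 (1.19, 1.597 and 2.42) were higher in all 3.

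Of 12 genes of inhibitory signalling, 4, 5 and 5 were higher in the hemizygous, homozygous and TAU mice of 18 months, where 4.67%, 6.63% and 11.9% of all genes were, and none was lower (median log2 difference 0.48, 0.61 and 0.59). The inhibitory receptor Lilrb4a had the largest differences (3.12, 4.25 and 5.21). Pirb, another inhibitory receptor, differed by 0.50, 0.93 and 2.26, and Ptpn6, the phosphatase recruited by such receptors, by 1.54, 2.34 and 3.21. Inpp5d, the phosphatase that acts downstream of Fcgr2b, was higher in homozygous (1.55, adjusted p = 0.000136) and TAU mice (2.33) and was at 0.66 in hemizygous mice (adjusted p = 0.165). Against the same shares of all genes, 9, 14 and 15 of 16 phagocytic effector genes were higher (median 0.81, 1.51 and 2.29). Among them were Cyba (1.03, 2.22 and 2.82) and Ncf1 (0.83, 1.58 and 1.89), subunits of the phagocyte NADPH oxidase, Arpc1b, a subunit of the actin-branching Arp2/3 complex (0.85, 1.82 and 2.56), and Dock2, an activator of Rac (1.12, 1.45 and 2.25). Lcp1, an actin-bundling protein of leukocytes, passed in homozygous (1.09) and TAU mice (2.33) but not in hemizygous mice (0.56, adjusted p = 0.0532).

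Other Fc receptors and Fc receptor-like genes were read in the same way. Of 13 listed, 7 passed the filter, and 1, 0 and 3 were higher in hemizygous, homozygous and TAU mice of 18 months, to be read against 4.67%, 6.63% and 11.9% of all genes. Fcgrt, the neonatal Fc receptor that recycles IgG, was at -0.27 (adjusted p = 0.386), 0.18 (adjusted p = 0.668) and 0.77 (adjusted p = 0.00327). Trim21, the cytosolic antibody receptor, was at 0.35 (adjusted p = 0.571), 0.87 (adjusted p = 0.0757) and 1.07 (adjusted p = 0.0251), and was higher in homozygous mice of 8 months (0.86, adjusted p = 0.0345). Fcrl1, a receptor of B cells, was at 0.67 (adjusted p = 0.0292), 0.29 (adjusted p = 0.54) and 1.13 (adjusted p = 0.000435). Among genes of the ligands, 7 of 15 passed the filter and 0, 2 and 3 were higher, against the same shares. Ighm, the heavy chain of IgM, was at 18.8 ± 6.15 TPM in wild-type and 42.3 ± 2.496 TPM in homozygous mice of 18 months (1.22, adjusted p = 0.0165). Ptx3, a pentraxin that Fc gamma receptors can bind, was higher in homozygous (1.15, adjusted p = 0.00653) and TAU mice (2.98, adjusted p = 7.16e-11). Igkc, the kappa light chain, passed in TAU mice (3.35, adjusted p = 0.00225) and was at -0.75 in homozygous mice (adjusted p = 0.676).

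Fc receptors are also expressed by other myeloid cells, so marker lists of these and of further cell types were read beside the members. The counts of higher markers are to be read against the share of all genes higher at 18 months. It was 4.67% in hemizygous, 6.63% in homozygous and 11.9% in TAU mice. Of the border macrophage markers 0 of 7 were higher in the hemizygous and homozygous mice of 18 months, and 3 of 7 in TAU mice; their summed level was 2.92 to 8.36 TPM in wild-type, 5.79 to 11.5 in hemizygous, 7.48 to 11.6 in homozygous and 23.6 to 44.3 TPM in TAU mice. Monocyte and neutrophil markers were higher in 0, 0 and 4 of 7 tested, with sums of 2.00 to 9.70, 4.63 to 7.92, 4.61 to 6.63 and 11.6 to 19.9 TPM in the same order, and the neutrophil marker Ly6g was at 0 in every hemizygous, homozygous and TAU library of that age. Of 7 mast cell and basophil markers 2 passed the filter, and both were higher in TAU mice, with Fcer1a at 0 in both libraries. A gene can pass the filter through a high mean in the TAU mice alone, so nothing is drawn from this count. The 7 markers summed to 0.0148 to 1.26 TPM in wild-type and 2.22 to 3.23 TPM in TAU mice. NK and T cell markers were higher in 0, 3 and 4 of 6 tested in hemizygous, homozygous and TAU mice. Their sums overlapped, at 2.69 to 10.5 TPM in wild-type, 3.62 to 6.21 in hemizygous, 5.74 to 11.5 in homozygous and 9.77 to 15.6 TPM in TAU mice. Brain endothelium markers summed to 147 to 166 TPM in wild-type and 254 to 265 TPM in TAU mice of 18 months. For B and plasma cell markers the sums were 1.81 to 4.80 TPM in wild-type and 3.63 to 4.89 TPM in TAU mice. For dendritic cell markers they were 6.19 to 9.16 TPM and 6.42 to 6.95 TPM. The part of these cells in the values of the TAU mice was not tested. Plaque microglia markers, a list that contains Tyrobp, were higher in 10, 11 and 11 of 12. Hippocampal neuron markers summed to 279 to 388 TPM in homozygous and 336 to 389 TPM in TAU mice of 18 months against 492 to 669 TPM in wild-type mice; 0 and 3 of 15 were lower (10.5% of all genes in TAU mice), and the part of this in the values of the members was not tested.

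**Figure D4:**
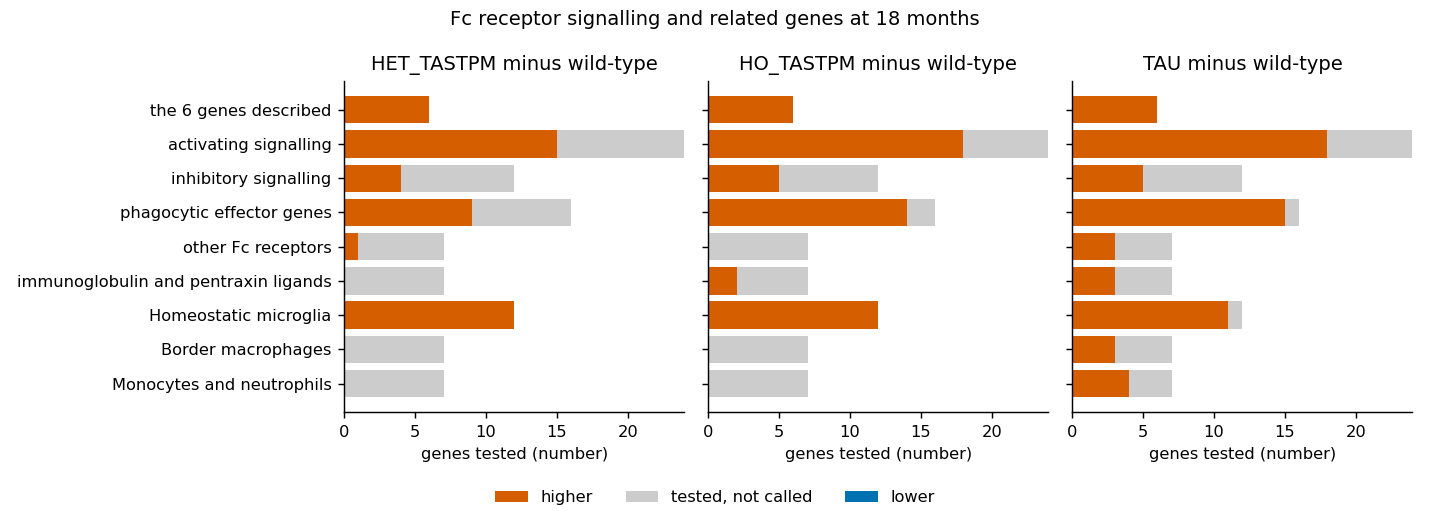
Number of genes tested in each list (horizontal axis) that were higher, lower or not past the threshold against wild-type mice at 18 months, in 3 panels for hemizygous, homozygous and TAU mice. All 6 Fc receptor genes are higher in each panel, and activating signalling has 15, 18 and 18 of 24 genes higher. Of all genes tested, 4.67%, 6.63% and 11.9% are higher in the same order.

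The genes whose pattern was most like that of each member were read from the correlation of log2 levels over the 24 group means, which all libraries of a group share. Fcgr2b was closest to the complement genes C1qc, C1qb and C1qa (r = 0.99), and Fcgr3 to C1qb, C1qc and Hcar2 (r = 0.992). Fcer1g was closest to Itgb5, Tyrobp and Ctsz (r = 0.988). Fcgr1 lay nearest to Oas1g (0.971), C3ar1 and Lair1 (0.969), Fcgr4 to Trim34a (0.981), Tlr2 and Itgax (0.979), and Fcrls to Fam46c (0.977), Slc15a3 (0.976) and Dock8 (0.971). Among themselves the 6 members had r of 0.923 to 0.99 (median 0.95). With the group mean removed, over all libraries, these values fell to between 0.0483 and 0.579 (median 0.189). The closest genes were then C1qb for Fcgr3 (0.704), Tyrobp for Fcer1g (0.707), Siglech for Fcgr2b (0.622) and Cx3cr1 for Fcrls (0.596), whereas the highest value was 0.44 for Fcgr1 (Clic1) and 0.374 for Fcgr4 (Gm22756), the 2 members with the lowest levels.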

How the data were processed

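The deposited TPM values (transcripts per 1000000) were made by the authors from strand-specific poly(A) libraries (paired reads of 100 bases, 12 libraries per lane) with Trim Galore, Salmon and tximport against GRCm38; for the tools, versions were not given in the sources used here. Column totals are all 1000000, so depth is unknown. From these values, log2(TPM + 0.5) of 26272 genes (group mean of 0.5 TPM or more in any group) entered a linear model in limma 3.58.1, R 4.3.3 (1 mean for each of 24 groups of line and age, 79 residual degrees of freedom, empirical Bayes with trend). P-values were adjusted by Benjamini-Hochberg over all genes within a comparison, at 0.05, and log2 differences are on the log2(TPM + 0.5) scale, which understates changes of low genes. Log ratios per mouse were compared by exact permutation (scipy 1.17.1). The fit and the ratio test were tested on simulated data.

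Groups came from the labels. Lane stands for the lane number in the column headers, as flow cells are not named there. Genes named were the 6 members everywhere; genes of a list past the threshold in TAU or homozygous mice of 18 months or homozygous mice of 8 months and among the 4 smallest p of their list; Tyrobp, Syk, Inpp5d, Ptpn6, Fcgrt and Trim21; and the 3 genes most like each member. Members and lists were chosen with earlier results of these data known. The alternatives tried were a pseudocount of 0.1 or 1, no filter, the study's filter (mean log2 TPM over 1.5 in a group), quantile normalization, lane as a covariate, no trend, only the groups compared, wild-type mice of the same lane, 3 genes as the microglia reference, and leaving out libraries set apart by region (score over 1.5), by the transgene, or singly. The transgene of the TPM line and 1 gene that the naming rule selects are not reported here.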

Additional observations from a re-analysis of the deposited data

Results flagged for a closer look

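In groups of 4 to 10 mice, 4 of 108 sets of member values had 1 mouse far from the others; chance alone flags about 1 in 20. Fcgr1 in homozygous mice of 4 months was at 5.78 TPM in replicate 1 and 3.82 to 4.14 TPM in the other 3, and this mouse was the only one of the group not set apart by genes of other brain regions. Fcgr2b in the TPM line at 8 months was at 3.66 TPM in replicate 3 and 5.18 to 5.27 TPM in the others. Fcgr3 in the TPM line at 2 months was at 10.5 TPM in replicate 3 and 14.4 to 15.2 TPM in the others. Fcer1g in hemizygous mice of 2 months was at 33.6 TPM in replicate 2 and 23.7 to 24.8 TPM in the others.

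Among 36 tests of whether the difference from wild-type mice changed with age, 11 passed. In homozygous mice from 4 to 8 months the log2 difference grew by 1.90 for Fcgr2b, 1.55 for Fcgr3, 1.67 for Fcer1g and 1.85 for Fcrls. In hemizygous mice over the same ages it grew by 0.98 for Fcgr3. In TAU mice from 8 to 18 months it grew by 1.99 for Fcgr1, 3.84 for Fcgr2b, 2.78 for Fcgr3, 2.70 for Fcgr4, 2.87 for Fcer1g and 1.90 for Fcrls, with 2 mice at 18 months.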

How the results depend on the processing

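No called result changed sign. Over 11 settings that kept single mice, 2489 log2 differences of members kept their direction and side of the threshold, 37 that were not called changed sign and stayed uncalled, 21 gained and 52 lost the call. Over 95 settings without 1 library these were 2772, 73, 23 and 48. Counts of members that moved by over 1.5 times are given with the reported count in brackets. Without the libraries set apart by region, 1 gene was higher in hemizygous mice of 4 months (0) and 1 in homozygous mice of 4 months (5), 1 between homozygous and hemizygous mice of 4 months (3), 0 from 2 to 4 months in homozygous mice (2), and 2 in the growth of the hemizygous difference from 4 to 8 months (1). With only the groups compared in the fit, which leaves few degrees of freedom, the counts were 2 in hemizygous mice of 8 months (5), 0, 3 and 0 for homozygous against hemizygous mice of 4 and 8 months (3 and 6) and homozygous against TAU mice of 18 months (1 lower), and 0 for the age changes in homozygous mice to 4 months (2), hemizygous mice to 8 (4) and 18 months (2) and TAS10 mice to 18 months (1). With lane as a covariate they were 1 for homozygous against hemizygous mice of 18 months (3), 2 lower against TAU mice (1), 0 for TAS10 (1) and 4 for the growth in hemizygous mice from 4 to 8 months (1). Quantile normalization gave 1 for hemizygous mice from 8 to 18 months (2), 0 for TAS10 (1) and 2 for the growth in hemizygous mice, as did the study's filter (1). With 0.1 added to TPM 1 gene passed between homozygous and hemizygous mice of 4 months (3); that setting, no filter and no trend each gave 0 lower against TAU mice of 18 months (1). The number of log ratios past the threshold (19, with several at an adjusted p of 0.05) was 34 with 0.1 and 32 with 1 added to TPM. It was 0 without the libraries set apart. There the homozygous mice of 4 months, with 1 mouse left, were not tested. Fewer mice at 8 months raised p-values and with them the adjusted p of the remaining family.

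Leaving out single mice gave 1 to 3 genes for homozygous against hemizygous mice of 4 and of 18 months, for homozygous mice from 2 to 4 months and for hemizygous mice from 8 to 18 months, 0 to 1 for TAS10 mice from 8 to 18 months and for homozygous below TAU mice, and 1 to 4 for the growth in hemizygous mice. Where a group was left with 1 mouse, that mouse was assumed to vary like the other groups. The causes were not tested. No paired analysis was possible because the labels give mice of different groups no shared number beyond a replicate order.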
